A study of Mus musculus with 2 samples.

Results

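The 4 genes of the MEF2 family, Mef2a, Mef2b, Mef2c and Mef2d, were examined in maps of open chromatin of the mouse cerebellum. The members were taken by gene symbol, 4 of 21938 coding genes on chromosomes 1 to 19, X and Y. Each was given a window that reached from 50 kb before to 50 kb after the gene, in mm10 coordinates of GENCODE mouse release 21. DNase-seq cuts the accessible DNA of nuclei with DNase I and reads the cut ends, so that a peak marks a stretch of open chromatin. A footprint is a short run of bases inside cut DNA that was cut less than its surroundings. The tissue was cerebellum of B6CASTF1/J males at 8 to 10 months of age, which carry 1 B6 and 1 CAST copy of the genome. There were no treatments, mutants or control tissues. The 2 libraries were biological replicates of 1 group, and a pool of 2 biosamples went into each. Whether any animal contributed to both pools is not stated in the labels. If any did, the spread between replicates may understate the variation between animals. Part of the difference between replicates may be technical in either case.

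MEF2 proteins are transcription factors with a MADS box, through which they bind DNA as dimers at an A/T-rich site. They are known from muscle development and, in neurons, from genes that respond to activity and from the control of synapse number. Calcium entry activates them through calcineurin and calcium-dependent kinases, and class IIa histone deacetylases bind and repress them. In the cerebellum, Mef2a and Mef2d are known from granule neurons, and Mef2c is also widely studied in cortex and heart.

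The 4 loci lie apart in the genome. Mef2a is at chr7:67231163-67372858 on the minus strand, and Mef2b is at chr8:70139711-70167488 on the plus strand. Mef2c is at chr13:83504034-83667080 and Mef2d at chr3:88142372-88172086, both on the plus strand. Mef2c and Mef2a are long genes of 163 and 142 kb, whereas Mef2d and Mef2b span 29.7 and 27.8 kb. GENCODE gives 27 separate transcript starts for Mef2c, 7 for Mef2a, 6 for Mef2d and 3 for Mef2b.

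The open DNA on which the results turn is shown first, as the stretch covered by the peaks of both replicates and free of annotated exons, cut to the middle 300 bases where it was longer. Each is read 5′ to 3′ on the strand of its gene, from the GRCm38 (mm10) reference. Capitals mark bases under a footprint of either replicate. The Mef2a promoter is chr7:67372859-67373040 (minus strand), the 182 bases before the main start. The Mef2b and Borcs8 start is chr8:70139201-70139440 (plus strand), the strongest start peak of the family. The Mef2c start region is chr13:83523651-83523950 (plus strand), the middle of an intronic stretch of 400 bp among the second cluster of starts. The Mef2c downstream element is chr13:83715061-83715280 (plus strand), the strongest peak of that window. The Mef2d promoter is chr3:88142121-88142360 (plus strand), ahead of the first start. The Mef2d downstream element is chr3:88178001-88178240 (plus strand), the strongest peak of all 4 windows.
Mef2a promoter: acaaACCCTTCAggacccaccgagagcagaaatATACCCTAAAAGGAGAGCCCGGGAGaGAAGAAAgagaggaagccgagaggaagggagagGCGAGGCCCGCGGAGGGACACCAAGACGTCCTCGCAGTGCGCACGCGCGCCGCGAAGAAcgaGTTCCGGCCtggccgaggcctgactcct
Mef2b and Borcs8 start: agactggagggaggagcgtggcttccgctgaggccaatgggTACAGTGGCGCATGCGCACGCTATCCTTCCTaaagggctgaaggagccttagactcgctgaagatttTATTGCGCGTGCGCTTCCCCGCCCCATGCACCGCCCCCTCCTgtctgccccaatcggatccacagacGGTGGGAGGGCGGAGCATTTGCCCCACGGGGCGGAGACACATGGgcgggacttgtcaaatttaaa
Mef2c start region: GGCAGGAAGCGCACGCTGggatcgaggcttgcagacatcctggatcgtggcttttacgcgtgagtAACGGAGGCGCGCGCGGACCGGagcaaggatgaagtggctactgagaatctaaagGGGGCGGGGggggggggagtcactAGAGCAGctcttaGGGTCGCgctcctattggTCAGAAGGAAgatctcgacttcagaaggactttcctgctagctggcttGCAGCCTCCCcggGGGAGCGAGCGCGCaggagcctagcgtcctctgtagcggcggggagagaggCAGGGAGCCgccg
Mef2c downstream element: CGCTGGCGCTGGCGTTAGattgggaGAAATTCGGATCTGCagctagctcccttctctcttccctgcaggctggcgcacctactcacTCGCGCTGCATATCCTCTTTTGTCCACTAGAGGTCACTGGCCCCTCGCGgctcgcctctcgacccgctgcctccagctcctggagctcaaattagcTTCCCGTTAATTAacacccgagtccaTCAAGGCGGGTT
Mef2d promoter: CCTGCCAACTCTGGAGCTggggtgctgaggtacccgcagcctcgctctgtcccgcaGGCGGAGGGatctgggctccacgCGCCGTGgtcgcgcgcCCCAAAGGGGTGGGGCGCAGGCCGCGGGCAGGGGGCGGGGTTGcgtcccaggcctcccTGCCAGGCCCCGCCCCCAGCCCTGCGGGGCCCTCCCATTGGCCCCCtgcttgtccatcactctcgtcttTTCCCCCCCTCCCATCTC
Mef2d downstream element: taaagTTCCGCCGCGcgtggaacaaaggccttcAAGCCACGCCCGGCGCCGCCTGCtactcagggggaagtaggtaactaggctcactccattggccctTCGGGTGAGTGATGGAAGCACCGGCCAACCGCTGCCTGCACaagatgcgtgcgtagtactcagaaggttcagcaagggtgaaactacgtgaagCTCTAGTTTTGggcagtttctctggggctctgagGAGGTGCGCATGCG

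Of the 182 bases of the Mef2a promoter, 83 lay under footprints in replicate 1 and 95 in replicate 2, and 70 of them in both. In the Mef2b and Borcs8 start, 115 and 111 of 240 bases were covered, 109 in both. The Mef2d promoter had 131 and 120 of 240 bases covered, 110 in both. At these 3 starts most of the covered bases were covered in both libraries. The Mef2c start region differed, with 90 of the 300 bases printed covered in replicate 1, 44 in replicate 2 and 28 in both. Its peak had a signal of 1.28 and 0.942 in replicates 1 and 2, weaker than those at the other 3 starts. It is not the strongest Mef2c start peak, which lies in an exon and had 1.43 and 1.01. The downstream elements had 107 and 86 of 220 bases covered at Mef2c and 96 and 77 of 240 at Mef2d, of which 86 and 74 lay under footprints of both replicates.

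The libraries held 61776 and 71141 peaks in the authors' stricter list and 314116 and 320832 footprints, in replicates 1 and 2 in turn, and the authors' signal per peak had a median of 1.40 and 0.961. The signal moved in whole steps, and the median signal was 196 and 152 steps. It is not a count over the whole peak. In replicate 1 the peak at chr8:70166881-70166992 had 1.12 at a width of 112 bp. Drawn 320 bp wide in the longer list, it had the same 1.12. Counting intervals given below take a step as 1 cut and the signal as a plain count, and neither is stated by the authors. A start peak was present for 58.4% and 57.2% of all coding genes in replicates 1 and 2. Of 6 genes that mark each cell type, a peak stood at the start of 6 granule cell genes in both replicates, of 3 and 2 Purkinje cell genes, with none at Car8, Pcp2 or Ppp1r17, and of 1 oligodendrocyte gene, Mbp. Among skeletal muscle genes 1 and 2 had one, and none of the microglial or endothelial genes did. Whether a weaker peak means fewer cells with open chromatin or less opening per cell cannot be told apart in tissue of mixed cells.

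At their starts, all 4 members had a stricter peak within 1 kb in both replicates. The same was true of 58.4% of coding genes in replicate 1 and 57.2% in replicate 2, and of 55.9% in both. In the longer list, too, all 4 had one, as did 63.4% and 62.2% of coding genes. The strength differed widely among the members. Mef2b had a start signal of 13.7 and 10.3, Mef2a of 8.64 and 5.71, Mef2d of 7.33 and 6.12, and Mef2c of 1.43 and 1.01, in replicates 1 and 2. Mef2b was highest and Mef2c lowest in each replicate, and their values did not overlap those of any other member. Mef2a and Mef2d changed places between replicates and could not be ordered.

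**Figure D1:**
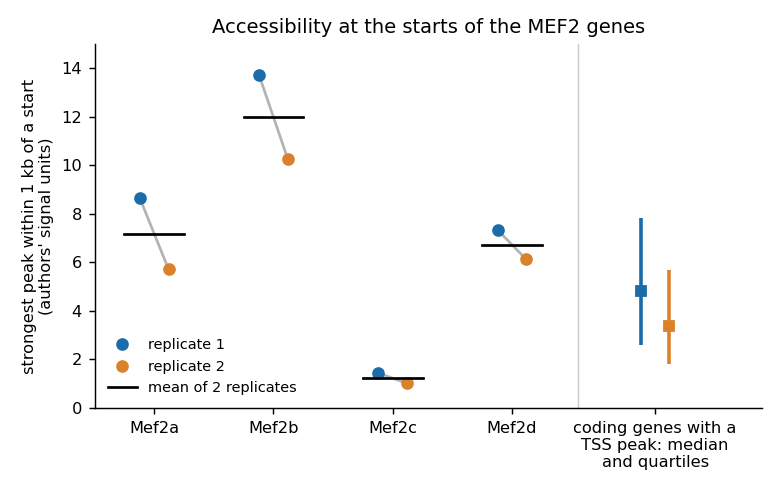
Signal of the strongest peak within 1 kb of any annotated start of each MEF2 gene (vertical axis, authors' units), as 1 point per replicate with the mean of both as a bar. At the right, squares and lines give the median and quartiles of coding genes that have a start peak. Mef2b averaged 11.98 and Mef2c 1.22, with Mef2a at 7.18 and Mef2d at 6.72 overlapping each other.

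As means with their spread, the start signals were 11.98 ± 2.44 for Mef2b, 7.18 ± 2.07 for Mef2a, 6.72 ± 0.857 for Mef2d and 1.22 ± 0.299 for Mef2c (SD, n = 2 replicates). Coding genes with a start peak had a median of 4.83 in replicate 1 and 3.38 in replicate 2, so that 3 members stood above that median and Mef2c below it. The Mef2b value exceeded that of 97.9% and 97.2% of all coding genes, the Mef2a value that of 88.3% and 85.8%, and the Mef2d value that of 83.4% and 87.5%. Mef2c stood near the middle, above 49.2% and 49.8% of coding genes, which include all genes without a start peak. Among genes with a start peak, 13.0% and 12.2% were weaker than Mef2c. The replicate 1 value of Mef2c rested on 201 steps and carried a 95% Poisson interval of 1.24 to 1.65, and its replicate 2 value rested on 160 steps with an interval of 0.861 to 1.18. The replicate 1 value of Mef2b rested on 1920 steps, with an interval of 13.1 to 14.3. These intervals treat the signal as a plain count, which it may not be, and cover counting error only.

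The high value of Mef2b did not come from the start that most of its transcripts use. Of its 5 transcripts, 1 starts at base 70139711 of chromosome 8, and the peak is centred at -0.39 kb from it. That peak covers the gap between 2 genes that point away from each other, Rfxank, which codes for a subunit of the RFX complex of MHC class II promoters and begins at base 70139154, and Borcs8, which codes for a subunit of the lysosome-positioning complex BORC and begins at base 70139499. The other 4 Mef2b transcripts start at bases 70152778 and 70152781. There neither replicate had a peak in the stricter or the longer list, and no base within 1 kb had an FDR of its cut rate under 0.05. The RefSeq promoter of Mef2b, at chr8:70152511-70152810, covers both of these starts and held no footprint in either replicate. The start peak counted for Mef2b cannot be assigned to it rather than to Borcs8 or Rfxank.

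Mef2c showed the same separation of starts. Its first cluster, 3 starts at bases 83504034 to 83504240 of chromosome 13 with 6 transcripts, had no peak in either list and no base with FDR under 0.05. Its second cluster, 11 starts at bases 83523473 to 83524920, had peaks in both replicates, which supply the values of 1.43 and 1.01 given above. A peak of 0.240, present in replicate 2 alone, stood by 2 starts near base 83572348. In all, 11 of 27 Mef2c starts had a stricter peak in both replicates and 14 had none in any list. The longer list added no Mef2c start with a peak in both replicates.

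Mef2a and Mef2d were open at the start that carries most of their coding transcripts. For Mef2a, the 2 starts at bases 67372827 and 67372858 of chromosome 7, the second of which begins 6 transcripts, shared the peak of 8.64 and 5.71. The 5 internal starts of Mef2a, which begin between bases 67266162 and 67316965, had no peak. In replicate 1 a second peak of 5.15 was centred 453 bp upstream of the 5′ end, and in replicate 2 a single wider peak of 440 bp covered the promoter. For Mef2d, 4 starts between bases 88142372 and 88142574 of chromosome 3 shared the peak of 7.33 and 6.12. An internal Mef2d start at base 88162960 had a peak of 3.65 and 3.69, while the last start, at base 88168252, had none. The lowest FDR of the cut rate near the main start was 2.85e-53 and 2.78e-87 for Mef2a, in replicates 1 and 2, against 5.53e-13 and 2.74e-16 for the second cluster of Mef2c.

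The promoter sequences of RefSeq (GRCm38.p6) also differed among the members. The table held 1 promoter each for Mef2a, Mef2b and Mef2d and 3 for Mef2c, each of 250 bases before and 50 after the start. The Mef2a promoter held 27 CpG dinucleotides and the Mef2d promoter 24, against a median of 7 over 32851 promoters. The Mef2b promoter had 11. The 3 Mef2c promoters had 1 at the closed first start, 10 at the open second cluster and 4 at a closed internal start. The members' open promoters had 10 or more CpG dinucleotides, and so did the closed Mef2b promoter.

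Beyond the starts, the windows differed in how densely they were open. The Mef2d window held 38 stricter peaks in replicate 1 and 25 in replicate 2, the Mef2b window 11 and 8, the Mef2c window 8 and 16 and the Mef2a window 7 and 9. Per 100 kb this was 29.3 and 19.3 peaks for Mef2d, against a median of 3.59 and 4.05 over coding genes, and 97.9% and 94.6% of coding genes had a lower density. The density of the other members was 8.61 and 6.26 for Mef2b, 3.04 and 6.08 for Mef2c and 2.90 and 3.72 for Mef2a. Mef2d lay above all 3 in both replicates, while Mef2a and Mef2c overlapped. The Mef2c count was higher in replicate 2 and the Mef2d count in replicate 1.

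**Figure D2:**
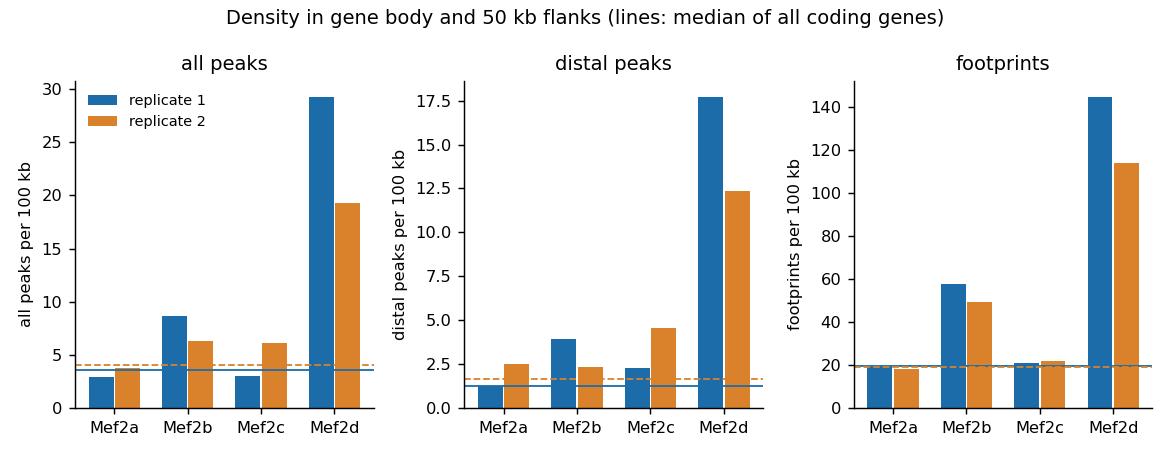
Stricter peaks, distal peaks (centred over 1 kb from any annotated start) and footprints per 100 kb of gene body with 50 kb flanks, for each MEF2 gene and replicate. Lines give the median over all coding genes in replicate 1 (solid) and replicate 2 (dashed). Mef2d stood at 29.3 and 19.3 peaks and at 145 and 114 footprints per 100 kb, above the other 3 genes in both replicates.

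Distal peaks, which are centred over 1 kb from any annotated start, are the usual place to look for enhancers. The 4 windows held 37 of them in each replicate, namely 23 and 16 at Mef2d, 6 and 12 at Mef2c, 5 and 3 at Mef2b and 3 and 6 at Mef2a. Per 100 kb, Mef2d had 17.7 and 12.3 distal peaks, more than 98.6% and 96.9% of coding genes. Mef2a had 1.24 and 2.48, above 50.02% and 64.2% of coding genes. The median coding gene had 1.24 in replicate 1 and 1.67 in replicate 2.

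Footprints were also most numerous at Mef2d. The windows held 188 and 148 at Mef2d, 74 and 63 at Mef2b, 55 and 58 at Mef2c and 47 and 44 at Mef2a. Of these, 65.1% in replicate 1 and 60.1% in replicate 2 lay in a stricter peak, against 64.1% and 66.7% of all footprints. A footprint that overlapped one of the other replicate was found for 48.9% and 56.9% of those in the 4 windows, against 51.0% and 50.6% of all. By locus, Mef2a had the highest shared share, 68.1% and 70.5%, and Mef2c shared 43.6% and 41.4%. Their median length was 10 bp in both replicates, as in the whole lists.

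**Figure D3:**
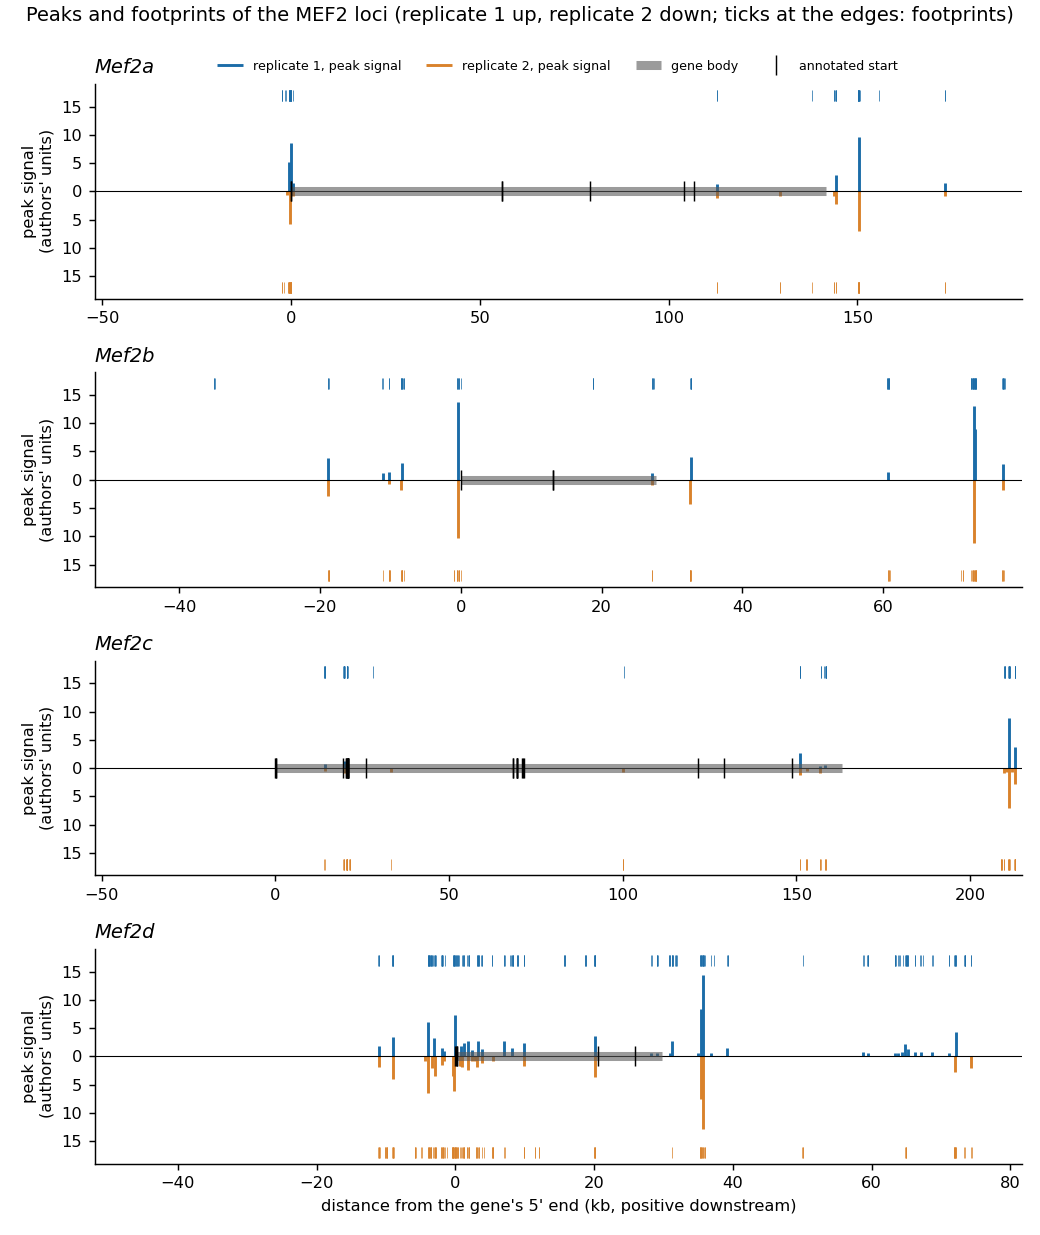
Stricter peaks and footprints in each MEF2 window against distance from the 5′ end of the gene (kb). Replicate 1 is drawn upward and replicate 2 downward, stems give the authors' peak signal, ticks at the edges mark footprints, the grey bar is the gene body and black ticks are annotated starts. Peaks of Mef2d crowd within 12 kb of its 5′ end, and the tallest stems of Mef2c and Mef2d lie past the 3′ end.

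Within 12 kb of the 5′ end, Mef2d had 16 peaks in replicate 1 and 20 in replicate 2, with 90 and 107 footprints. Of these peaks, 14 and 15 overlapped a peak of the other replicate. Some peaks overlapped each other within a library, and merging them left 15 and 18. The distance of 12 kb was chosen after the map was seen. In the same span Mef2a had 3 and 3 peaks, Mef2b 4 and 3, and Mef2c none in either replicate.

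Upstream of Mef2d, the strongest shared distal peak stood 3911 bp before the 5′ end, at chr3:88138361-88138560, with 6.06 and 6.50. A neighbour 9031 bp before the 5′ end had 3.497 and 3.96, and another at 3021 bp had 3.32 and 3.41. All 3 were stronger in replicate 2, although the shared peaks of the whole lists were weaker there by a median of -0.41 on the log2 scale. Within the gene, 10 and 11 intronic peaks had signals of at most 3.65 and 3.69.

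The strongest peak of the Mef2d window was its downstream element, with 14.3 and 12.9, above 99.5% and 99.7% of the peaks of each library. It is centred 35.75 kb from the 5′ end, past the 3′ end of the gene, and 336 bp from the start of 1700113A16Rik, an antisense transcript that overlaps the end of Mef2d. A second peak on that start itself had 8.42 and 7.49. By the rule used here, both count as promoter peaks of 1700113A16Rik rather than as distal peaks. Both exceeded the signal at the main start of Mef2d in each replicate.

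Replicate 1 alone had stricter peaks in a stretch 58 to 72 kb from the 5′ end of Mef2d. The stretch covers starts of the noncoding genes AW047730 and Gm3764. Just past it, a Gm3764 start had a stricter peak in both replicates, of 4.35 and 2.83. Within the stretch replicate 1 held 11 stricter peaks of 0.607 to 2.13 and replicate 2 held none. Of the 11, 1 overlapped the longer list of replicate 2. Footprints numbered 34 in replicate 1 and 10 in replicate 2. Without that stretch, which was chosen after the values were seen, the Mef2d window had 27 and 25 peaks.

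The Mef2c window was quiet around its first start and open at its far end. No peak lay in the 50 kb upstream of Mef2c in either replicate. The strongest peak, the downstream element 211 kb from the 5′ end, had 8.91 and 7.004, above the signal at any Mef2c start in each replicate. A second peak at chr13:83716961-83717200 had 3.75 and 2.78. The nearest annotated start to both was that of C130071C03Rik, a long noncoding RNA, at 6210 and 4300 bp. In the gene body, the strongest distal peak lay in an intron 151 kb from the 5′ end, at chr13:83654981-83655160, with 2.65 and 1.23. In the stricter list, replicate 2 added intronic peaks at 33.3, 68.2, 100 and 153 kb with 0.689, 0.240, 0.689 and 0.569. It also added a peak of 0.702 in the second cluster of starts. Beside the downstream element it added peaks at 209.9, 210.2, 210.7 and 212.1 kb, with 0.891, 0.531, 0.733 and 0.664. All were weaker than the median peak of replicate 2. Those at 33.3 and 100 kb overlapped peaks of 0.407 and 0.286 in the longer list of replicate 1. Those at 209.9 and 210.2 kb overlapped peaks there of up to 0.885 and 0.857.

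The Mef2a window held few peaks beside the promoter. The strongest was not at Mef2a but at the shared start of Lysmd4, a LysM domain gene, and 1700112J16Rik, with 9.63 and 7.08. The Lysmd4 gene overlaps the 3′ part of Mef2a on the other strand. Of the distal peaks, 3 were shared. The strongest, at chr7:67228481-67228680 inside Lysmd4, had 2.99 and 2.24. The one at chr7:67259961-67260140, in an intron of Mef2a, had 1.23 and 1.08, a spread of 0.104 around a mean of 1.15. The third, at chr7:67199541-67199700, had 1.57 and 0.796.

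In the Mef2b window most of the signal stood at other genes. The start of Slc25a42, a mitochondrial carrier of coenzyme A, had 13.0 and 11.2, and that of Tmem161a had 4.04 and 4.27. Ncan, which codes for neurocan of the brain extracellular matrix, had 3.90 and 2.96 at its start, and Nr2c2ap had 2.89 and 1.76. Inside Mef2b itself each replicate had 1 peak, intronic and 27.2 kb from the 5′ end, with 1.12 and 0.841. The shared distal peaks of the window had at most 2.76 and 1.73, at chr8:70216581-70216960.

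Of the stricter peaks in the 4 windows, 41 of 64 in replicate 1 (64.1%) and 40 of 58 in replicate 2 (69.0%) overlapped a peak of the other replicate, against 76.0% and 66.1% of the whole lists. The windows differed in opposite ways. All 7 peaks of replicate 1 at Mef2a were found again and 66.7% of those of replicate 2, whereas at Mef2d 47.4% and 76.0% were, at Mef2c 87.5% and 43.8%, and at Mef2b 81.8% and 100%. Over the 4 windows together, shared peaks had a median signal of 2.76 and 1.85, against 0.699 and 0.749 for the others. At Mef2d in replicate 2 the medians lay closer, at 1.92 for shared peaks and 1.43 for the others. The same medians over the whole lists are not given here. Of the 23 and 18 peaks not shared, 6 and 8 overlapped the longer list of the other library. The same share over all unshared peaks is not given here, so these counts cannot be called high or low.

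**Figure D4:**
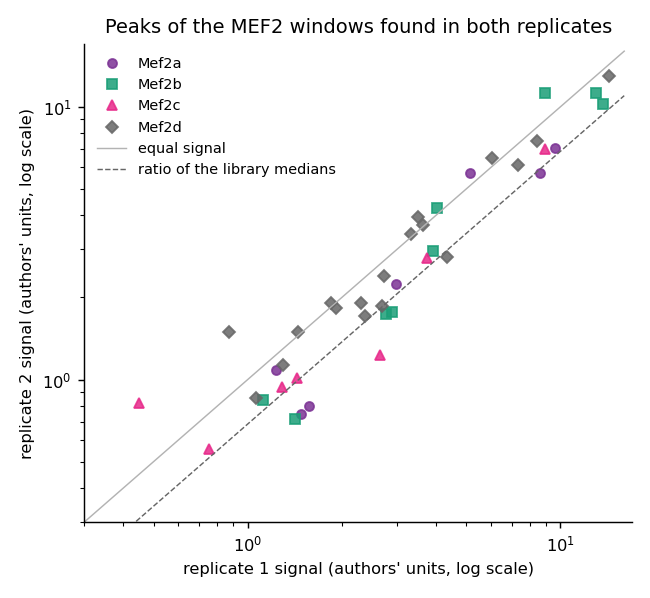
Signal in replicate 2 (vertical) against replicate 1 (horizontal), both in authors' units on log scales, for peaks of replicate 1 in the MEF2 windows that overlap a peak of replicate 2. The solid line is equal signal and the dashed line is the ratio of the library medians. Most Mef2a, Mef2b and Mef2c points lie near the dashed line and most Mef2d points lie above it.

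Among shared peaks, the log2 ratio of replicate 2 over replicate 1 had a median of -0.44 at Mef2a (7 peaks), -0.41 at Mef2b (9 peaks) and -0.43 at Mef2c (7 peaks), close to the -0.41 of all 46923 shared peaks. At Mef2d it was -0.16 (18 peaks). The quartiles at Mef2d were -0.27 and 0.04, against -0.68 and -0.08 over all shared peaks. Each peak of replicate 1 was paired with the strongest replicate 2 peak that it overlapped. A replicate 2 value could therefore be used again, as were 1.49 and 1.92 at Mef2d and 5.71 at Mef2a. Peaks of 1 window share their surroundings and the 2 libraries, so this is a description and no test was made.

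The MEF2 site itself, the A/T-rich decamer that the family binds, was searched on both strands of the 4 windows because MEF2 factors are known to act on each other's genes. It occurred 217 times, 105 times in the Mef2c window, 80 in that of Mef2a, 21 in that of Mef2d and 11 in that of Mef2b. Of these, 5 lay in a stricter peak of either replicate and 1 in both, and none lay under a footprint of either replicate. Counted by peak, 2 of the 64 and 2 of the 58 stricter peaks of the windows (3.1% and 3.4%) held such a site in their middle 200 bases. Across the whole lists, 1.07% and 1.64% of stricter peaks did, and 0.0385% and 0.0807% of footprints held one. The windows held 364 and 313 footprints, and the lack of a match among them says nothing of MEF2 binding. The 5 sites are shown with 10 bases on each side, read on the plus strand, with capitals marking the site.
Mef2a start, chr7:67372851-67372860: cacaccggggCTATTTTTAGgagtcaggcc
Mef2c intron, chr13:83603975-83603984: tggcagttgcCTAAAAATAGaaaactgctt
Mef2c intron, chr13:83603997-83604006: aactgcttaaCTAAAAATAGcctggctctc
Mef2c downstream, chr13:83714580-83714589: attgtgtaaaTTATTTTTAAgccaagaggc
Mef2d upstream, chr3:88140793-88140802: tggggaagcaCTAAAAATAGaggccacaag

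The site at the Mef2a start overlaps the first transcribed base itself and lay in the peak of both replicates. Of 32851 RefSeq promoters, 3.19% held a MEF2 site, and among the members' promoters only that of Mef2a did. The pair in the Mef2c intron, 100 kb from the 5′ end, lay together in the stricter peak of 0.689 of replicate 2. Replicate 1 had no stricter peak there, but in its longer list a peak of 0.286 held the second of the pair. The third Mef2c site lay in a peak of replicate 2 beside the downstream element, and the Mef2d site in a peak of replicate 1, at -1.58 kb from the 5′ end.

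Other short motifs were matched without mismatch on both strands in the middle 200 bases of peaks and in footprints widened by 5 bp on each side. They were NRF1 (GCGCA, any base, GCGC), the CCAAT box CCAAT, SP and KLF GGGCGG, EGR GCGNGGGCG, ETS CCGGAA, E-boxes CAGATG and CAGCTG, NFI TTGGCA, CRE TGACG, AP-1 TGANTCA, REST CAGCACC, RFX GTTGCNANG, ZIC CAGCAGG, nuclear receptor AGGTCA, CTCF and the CArG box of SRF. A GGGCGG match can run over the end of an EGR match. NRF1, a factor of genes for mitochondria and growth, had a site in 4 peaks of the windows in each replicate. Of these, 1 lay at the Mef2a promoter, and those of the Mef2b window lay at the starts of Ncan, of Nr2c2ap and of Rfxank and Borcs8. This was 6.25% and 6.90% of the windows' peaks, against 2.57% and 2.15% of all peaks. In footprints it was found 6 and 6 times, 5 of them in the Mef2b window, or 1.65% and 1.92% of the windows' footprints, against 0.679% and 0.648% of all. Of RefSeq promoters, 4.603% held it.

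In the sequences printed above, NRF1 motifs start at base 131 of the Mef2a promoter and at bases 49 and 113 of the Mef2b and Borcs8 start, and all 3 lie wholly in capitals. The Mef2a promoter also has an ETS motif in capitals from base 156. The Mef2d promoter has no NRF1 motif but 2 SP and KLF motifs, from bases 128 and 163, and a CCAAT box from base 190, all in capitals. It also has an NFI motif in capitals from base 3 and a REST motif from base 21 outside the footprints. The Mef2b and Borcs8 start has 5 SP and KLF motifs, 4 of them wholly in capitals, while its 2 CCAAT boxes, from bases 34 and 158, lie outside the footprints. The downstream element of Mef2c has a nuclear receptor motif in capitals from base 117 and a CCAAT box from base 19 outside the footprints. That of Mef2d has a CCAAT box from base 91 outside the footprints. A CCAAT box was found in 40.6% and 37.9% of the windows' peaks, against 23.2% and 25.2% of all peaks and 37.4% of RefSeq promoters. Of the windows' peaks, 27 of 64 and 21 of 58 were promoter peaks, and the same share over the whole lists is not given here. Of the 26 and 22 peaks with a CCAAT box, 17 and 10 lay in the Mef2d window. That window held 38 of the 64 peaks in replicate 1 and 25 of the 58 in replicate 2. The E-box CAGATG was found in 12.5% and 8.62% of the windows' peaks, against 19.5% and 22.2% of all peaks and 17.2% of RefSeq promoters. Among the 17 motifs searched, those with shares printed here had some of the wider gaps. Others lay nearer the whole lists, such as CTCF at 6.25% and 8.62% of the windows' peaks, against 6.70% and 5.93%. The E-box CAGCTG differed between replicates, at 4.69% and 12.1%, against 15.3% and 14.4%. No motif was tested.

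The genes that act on or through MEF2 were listed by role, and their share with a start peak was read against the 58.4% and 57.2% of coding genes given above. All 5 repressors had a start peak in both replicates. The class IIa deacetylases Hdac4 and Hdac5 had 17.2 ± 3.95 and 10.2 ± 1.16 (SD, n = 2 replicates here and below), and Cabin1, a calcineurin-binding repressor, had 6.85 ± 1.82. Hdac9 and Hdac7, of the same class, were weak at 1.04 ± 0.103 and 1.53 ± 0.615. The median of the list was 8.14 and 5.56, against 1.55 and 1.04 over all coding genes, whose median includes genes without a start peak.

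Of 12 genes of the signalling that reaches MEF2, 10 had a start peak in each replicate. Ppp3ca, the catalytic subunit of calcineurin, had 13.4 ± 3.70, Mapk14, the p38 kinase, had 12.1 ± 3.42, and Sik1, a kinase that phosphorylates class IIa deacetylases, had 7.56 ± 2.93. Camk2a and Prkd1 had none in either replicate. All 6 coactivators had one, with 11.5 ± 1.93 for Ncoa2, 9.98 ± 2.64 for Carm1, an arginine methyltransferase, and 8.69 ± 0.684 for Maml1.

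All 15 neuronal targets had a start peak in both replicates, against 3 and 4 of 10 muscle targets. The highest of the neuronal list were the immediate early genes Jun, at 16.04 ± 1.91, and Egr1, at 10.3 ± 2.53, with Homer1, a postsynaptic scaffold gene, at 9.61 ± 1.32. Of the muscle targets, Myom1 had 6.28 ± 2.52, Ckm, the muscle creatine kinase, 1.79 ± 0.623 and Des 0.791 ± 0.466, while Actc1 and Myh6 had none. Of 10 partner factors known from muscle and heart, 3 had a start peak. They were Srf at 8.27 ± 0.543, Tead1 at 4.90 ± 2.33 and Nfatc1 at 1.30 ± 0.415, whereas Gata4 and Hand2 had none. The lists were chosen with earlier results of these data known, and no test was made of them.

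The coding genes most like each member were found from the start signal and the distal density in both replicates, over 2 samples. They were Pcnt and Adam1a for Mef2a, Tpm1 and Glyr1 for Mef2b, D430041D05Rik and H2-Eb1 for Mef2c, and Abca2 and Dnlz for Mef2d. The distance, in SD units of the 4 values, was 0.0815 for Pcnt, 0.0565 for Tpm1 and 0.0760 for D430041D05Rik, but 0.339 for Abca2. Abca2 had a start signal of 9.14 and 5.47 and 18.4 and 13.4 distal peaks per 100 kb. The second nearest genes lay at 0.0898 for Mef2a, 0.0733 for Mef2b, 0.141 for Mef2c and 0.349 for Mef2d.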

How the data were processed

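The data were 2 replicate libraries of 1 group, numbered as in the labels. Per the labels the assembly is mm10. The authors deposited, for every library, a longer and a stricter peak list with a signal value per peak on an unstated scale. They also deposited the FDR (q-value) of the local cut rate where it is under 0.05, and footprints that all carry 0.01. All stricter peaks held a base with FDR under 0.001. The B6 and CAST alleles were not resolved. Caller, aligner and read numbers are not stated in the sources used here.

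A start signal was that of the strongest stricter peak overlapping 1 kb either side of any GENCODE start. Sharing needed an overlap of 1 bp. Signals moved in whole multiples of 0.00714 and 0.00632 (100% of the values checked, within 0.05 of a step). Poisson intervals (95%) take a step as 1 cut and the signal as a plain count. With 1 group, no test was made. Likeness was the Euclidean distance over 4 values, namely log2 start signal (with 0.1 added) and distal density in each replicate.

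Genes named were the 4 members, other genes with a start peak in both replicates in their windows, for every pathway list the 3 of highest mean start signal and up to 2 without one, and the 2 genes most like each member. Regions named included 3 shared distal peaks per window. Hdac7, Hdac9, Mbp and the Purkinje cell genes without a start peak were named after their values were seen. Members, lists and motifs were chosen with earlier results of these data known, and the letters of the EGR, RFX and ZIC motifs were simplified after first results. Start peaks and steps were tested on simulated data with known answers. The longer list, other windows and overlaps, and single libraries served as alternatives. The scripts ran in Python 3.11.15 with pandas and pysam.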

Additional observations from a re-analysis of the deposited data

How the results depend on the processing

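All 4 members kept a start peak in both replicates with the longer list, peaks at or above the median signal, windows of 500 bp and 2 kb, protein-coding transcripts alone, and start peaks that hold a footprint. Counts depended on the list. With the longer list the windows held a mean of 92 peaks, against 61, and 64.5 distal peaks, against 37, and 79.9% of footprints lay in peaks, against 62.6%. Peaks at or above the median signal numbered 36, of which 18.5 were distal, and 82.1% of them were shared, against 66.5% in the main setting. Footprints in a stricter peak numbered 212.5, against 338.5 in all, and 58.5% of footprints lay wholly inside one. With flanks of 25 kb 73.9% of peaks were shared, and with flanks of 100 kb the windows held 115 peaks, 68.5 distal peaks and 598.5 footprints. Requiring a reciprocal overlap of 50% lowered the shared share to 56.7%. Divided by the median of its own list, the Mef2d start signal was 5.80, just under that of Mef2a at 6.06, and Mef2b and Mef2c stayed highest and lowest at 10.2 and 1.04. With a single replicate, peaks ran from 58 to 64 and footprints from 313 to 364, and the shared share could not be computed. No paired analysis was possible because there is 1 group. With 2 libraries and no read numbers, spread between replicates sets the limit on every comparison made here.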

Other observations

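A copy of the miR-9 gene lies past the 3′ end of both Mef2c and Mef2d. Mir9-1, at chr3:88215598-88215686, lies 43.5 kb past the 3′ end of Mef2d, inside the noncoding gene Gm3764, and in the longer list a peak over it had 1.89 and 1.43 in replicates 1 and 2. By the start rule used above, which needs overlap only, Mir9-1 had a stricter start peak of 4.35 and 2.83. That peak was centred 4 and 74 bp from a start of Gm3764. No stricter peak was centred within 1 kb of the annotated start of Mir9-1 in either replicate. Mir9-2, at chr13:83738814-83738885, lies 71.7 kb past the 3′ end of Mef2c, inside C130071C03Rik and outside the window used above. Within 1 kb of its annotated start the stricter list had no peak in replicate 1 and one of 1.17 in replicate 2. The start of C130071C03Rik had 5.02 and 2.36, and that of Gm26803, a noncoding gene on the other strand, 4.59 and 4.45. No link between these peaks and either MEF2 gene was tested.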
